A study of Mus musculus with 9 samples.

Results

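This comparison sets 3 lines from AZD1208-treated mice against 3 lines from vehicle-treated mice, 6 of the 9 arrays of the series, chosen by their labels. All 6 descend from MYCCaP, cells cultured from a prostate tumour of a mouse that carries human MYC under a prostate-specific promoter that responds to androgen. The series title places the lines in recurrent, resistant tumours of castrated mice, and both groups are labelled -DHT, read here as culture without dihydrotestosterone, an androgen. The groups therefore share the cell line, the castrated host and the -DHT label, and differ in what the mice received. The other 3 arrays, technical replicates of parental MYCCaP labelled +DHT, serve as a reference level and enter no fit. Their mean also counted in choosing the probe set of each gene and the genes tested, and they entered the quantile normalization. Expression was measured on Affymetrix Mouse Gene 2.0 ST arrays, and the values are log2 intensities, so a difference of 1 is a 2-fold change. The labels call the lines biological replicates. The labels do not say whether each came from its own mouse, whether a line is 1 clone, or whether AZD1208 was present in culture, so p-values measure only the spread between these lines.

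PIM kinases are serine/threonine kinases that are active as soon as they are made, so their amount sets their output. They work beside AKT on many of the same substrates, which control protein synthesis, cell survival and the cell cycle, and they cooperate with MYC in lymphoid and prostate tumours. AZD1208 binds the ATP site of all PIM family members and blocks the enzymes, not their transcription.

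As a check of the labelled cell type, the prostate homeobox gene Hoxb13 was between 8.44 and 8.92 and the epithelial claudin gene Cldn3 between 11.65 and 12.43 in the 6 lines. The simple-epithelial keratin gene Krt8 ranged from 8.24 to 10.44. Cdh1, which encodes E-cadherin, was between 6.45 and 6.96 in the lines and 7.0 in parental cells, and the array values carry no detection call. Over the 15 epithelial and luminal markers tested, the mean level was 7.53 to 8.14 in the lines, below the parental 8.27 in each. The fibronectin gene Fn1, listed as a fibroblast marker, was between 13.10 and 13.79 in the lines. The sets of 15 epithelial, 14 fibroblast, 11 endothelial, 8 myeloid and 6 lymphocyte markers tested held 0 genes that passed the test. All 15526 genes tested held 0 as well, so these counts are no measure of cell content. AZD1208 3 stood apart in its array values, with an interquartile range of 2.87 against 3.01 to 3.12 in the other 5 lines. Its array quality weight was also the lowest (0.355 against 0.60 to 2.97). Whether the array or the line itself gave these values was not tested.

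Lines of the same group differed from each other about as much as lines of different groups. AZD1208 2 and AZD1208 3 were the most distant pair of all, with 1443 of 15526 genes more than 2-fold apart. The closest pair crossed the groups, AZD1208 3 and vehicle 3, with 162 such genes. Over the 9 pairs that cross the groups the count ran from 162 to 1058, over the 3 pairs of AZD1208 lines from 623 to 1443, and over the 3 pairs of vehicle lines from 175 to 877. Between technical arrays of the parental line it was 0 to 13.

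**Figure D1:**
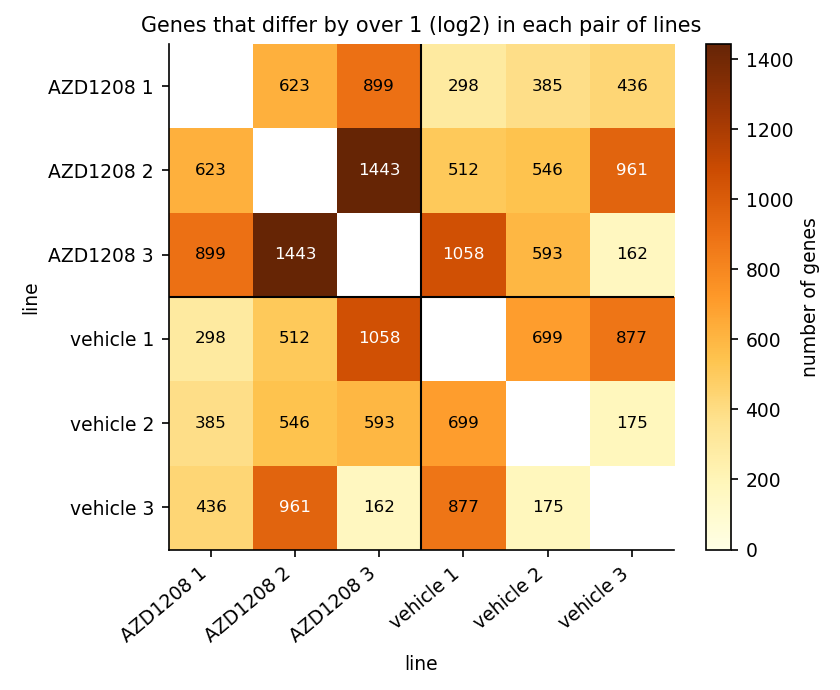
Number of genes, of 15526 tested, that differ by more than 1 on the log2 scale between each pair of the 6 lines; rows and columns are lines, and black rules separate the treatment groups. The palest cell joins AZD1208 3 and vehicle 3 (162 genes) and the darkest AZD1208 2 and AZD1208 3 (1443 genes).

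The question put to the data was which genes differ between lines that recurred under the PIM inhibitor and lines that recurred under vehicle. In limma's moderated test over 15526 genes, 0 (0%) had an adjusted p under 0.05, and the smallest adjusted p was 1. At an unadjusted p under 0.05 there were 81 genes (0.522%), 24 higher and 57 lower in AZD1208 lines. That share is smaller than the threshold itself would give on average if no gene differed. With the replicate number as a block, the paired fit also called 0 genes and left 169 at an unadjusted p under 0.05. The median 95% interval of a gene's difference reached 0.46 to either side, so differences under about that size were not resolvable with 3 lines a group. That bound is for a single gene and is not adjusted for the 15526 genes. After adjustment larger differences were not resolved either, as 26 genes differed by more than 1 and 0 passed.

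The range of the lines gives a second view that needs no spread model. All 3 AZD1208 lines lay above all 3 vehicle lines for 219 genes (1.41%) and below them for 307 genes (1.98%), 526 in all (3.39%). Lines grouped without regard to treatment would also separate for some genes, so separation alone is no evidence of a treatment difference. With quantile normalization the split was 329 higher and 271 lower, and with arrays centred on their median 267 higher and 505 lower, so the balance of the directions depends on the scaling. Most separations were narrow. The median distance between the nearest lines of the 2 groups was 0.04, and it was more than 0.2 for 8 genes with higher values in AZD1208 lines and for 20 with lower values. It was more than 0.3 for 4 genes, all lower in AZD1208 lines. These were Il18r1, Smim22, Fcamr and Tpmt, the last a thiopurine methyltransferase gene chosen after its values were seen, at 8.52, 8.60 and 8.37 in AZD1208 lines and at 8.97, 8.94 and 8.98 in vehicle lines.

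Direction followed the level of a gene, and this pattern moved with 1 array. With the genes ranked by mean level and cut into 3 bins of equal size, 66.6% were higher in AZD1208 lines in the lowest bin, 40.9% in the middle bin and 28.1% in the highest bin. The separated genes split the same way, with 137 higher and 42 lower in the lowest bin and 21 higher and 144 lower in the highest. Without AZD1208 3, the array of narrow range, the shares were 40.3%, 49.4% and 42.6%. With quantile normalization they were 59.9%, 48.5% and 45.3%. Values without AZD1208 3 are therefore given beside the gene groups that follow.

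**Figure D2:**
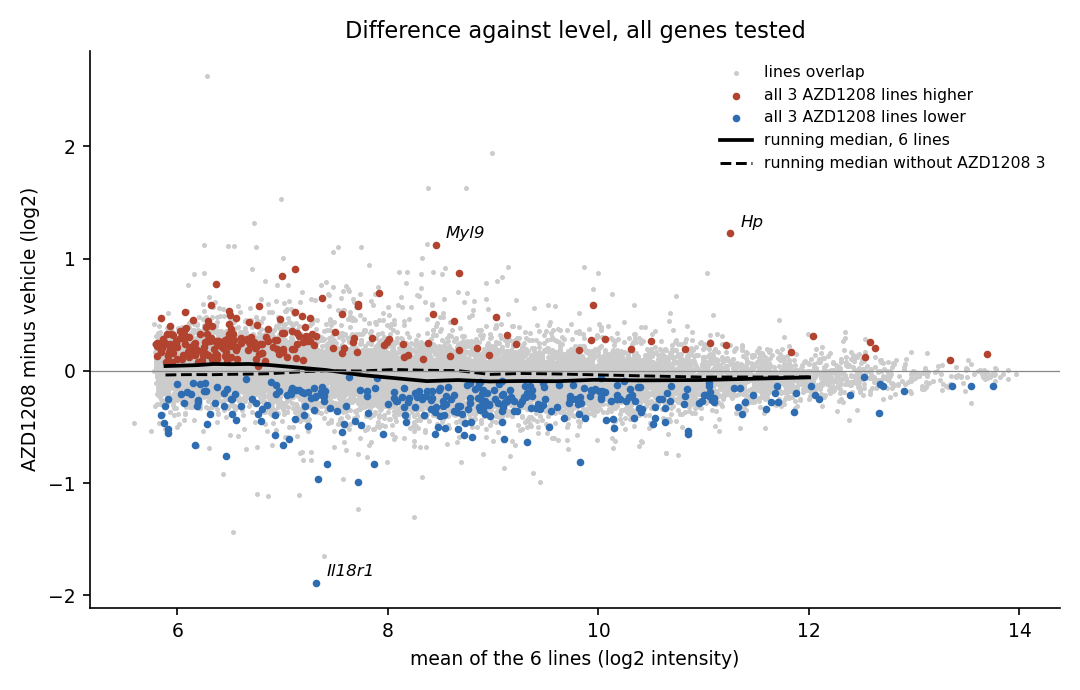
Mean log2 difference, AZD1208 minus vehicle, against the mean log2 intensity of the 6 lines for 15526 genes; coloured points are the 219 genes higher and 307 genes lower in all 3 AZD1208 lines, and lines are medians over 20 bins of equal size. The solid line lies above 0 at low levels and below 0 at high levels, and the dashed line without AZD1208 3 lies below 0 at low levels.

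Il18r1 had the widest separation of any gene in either direction. It encodes the ligand-binding subunit of the receptor for interleukin-18, a cytokine that induces interferon-gamma in lymphocytes. Il18r1 was at 6.77, 5.59 and 6.77 in AZD1208 1, 2 and 3, and at 7.81, 9.05 and 7.93 in vehicle 1, 2 and 3. The nearest lines of the groups were 1.04 apart, and the parental level was 5.93. The AZD1208 lines thus lay on both sides of the parental level and the vehicle lines all above it. The mean difference was -1.89 (SE 0.43, 95% interval -2.89 to -0.88, not adjusted for the number of genes), or 3.7-fold lower in AZD1208 lines, with a limma adjusted p of 1. With single lines left out it ranged from -2.11 to -1.49.

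The family around Il18r1 did not share its pattern. Of 12 tested genes of the interleukin-1 and interleukin-18 family, 7 were higher and 5 lower in AZD1208 lines, 0 passed, and the median difference was 0.01 against -0.02 over all genes. Il1rn, the secreted receptor antagonist, was at 5.78, 6.64 and 6.27 in the AZD1208 lines and at 5.92, 5.81 and 5.92 in the vehicle lines. Its groups overlapped, because AZD1208 1 was the lowest of all 6 lines. Sigirr, an inhibitory receptor of the family, differed by 0.18 (SE 0.15) with a distance of 0.006 between groups, was 0.09 without vehicle 1, and had overlapping groups under both other scalings. Irak3, a negative regulator of the receptor kinases, differed by 0.29 (SE 0.31), or -0.05 without AZD1208 2.

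After Il18r1, Gnb4 and Slc9a7 had the largest separated differences to lower values. Gnb4, a G protein beta subunit, was at 6.35, 7.58 and 7.74 in AZD1208 lines and at 7.95, 8.54 and 8.14 in vehicle lines. Slc9a7, a sodium/proton exchanger of the Golgi, was at 6.24, 7.61 and 6.70 against 7.88, 7.76 and 7.81. Both differences were widest through AZD1208 1, and without it they were -0.55 and -0.66 in place of -0.99 and -0.96. The vehicle values of Slc9a7 were tightly placed (SD 0.06, n = 3), while the AZD1208 values spread over more than 1 log2 unit (SD 0.70, n = 3).

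Amotl1, an angiomotin that binds the Hippo effector YAP at cell junctions, was at 9.08, 9.35 and 9.83 in AZD1208 lines against 10.38, 10.03 and 10.29 in vehicle lines. The parental level of 10.26 lay inside the vehicle range. Arhgap44 was at 7.10, 7.29 and 7.96 against 8.13, 8.39 and 8.32, with a parental level of 7.81. Mtmr10, a member of the myotubularin family, was at 8.75, 9.27 and 9.01 against 9.54, 9.77 and 9.6, with a parental level of 9.64. For these 3 genes the differences were -0.81, -0.83 and -0.63, and with single lines left out the smallest in size were -0.64, -0.66 and -0.50.

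Arg2, the mitochondrial arginase that splits arginine into ornithine and urea, was at 6.74, 7.26 and 7.01 in AZD1208 lines and at 7.36, 7.94 and 8.20 in vehicle lines. Its parental level of 6.78 fell inside the AZD1208 range. Smim22, which encodes a small membrane protein, was at 6.58, 6.61 and 6.83 against 7.60, 7.18 and 7.23, and Fcamr, an Fc receptor for IgA and IgM, at 5.93, 5.54 and 6.05 against 6.45, 6.39 and 6.65. For both of them too the parental level (6.65 and 5.96) lay inside the AZD1208 range. Nearest lines of the 2 groups were 0.35 apart for Smim22 and 0.34 for Fcamr.

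Maf, a basic leucine zipper transcription factor, was at 9.07, 8.35 and 8.96 in AZD1208 lines and at 9.57, 9.42 and 9.22 in vehicle lines. Ccbe1, a secreted protein that helps activate the lymphatic growth factor VEGF-C, was at 8.37, 8.65 and 8.29 against 9.05, 8.92 and 9.05. Ccl3, an inflammatory chemokine, was at 5.92, 6.13 and 6.19 against 6.25, 7.92 and 6.36. Its difference of -0.76 rested on vehicle 2, and it was -0.22 without that line. The other 3 of the 15 genes were Haus1, a subunit of the spindle complex augmin (-0.59, or -0.37 without AZD1208 3), Prr15l (-0.57, or -0.35 without AZD1208 2) and Polr2l, a subunit shared by the RNA polymerases (-0.56). All 15 genes stayed separated with quantile normalization and with arrays centred on their median, and for each the limma adjusted p was 1.

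Among genes with higher values in AZD1208 lines, Hp, Myl9, Wnt6, Slpi and P2rx7 had the largest separated differences. Hp, which encodes haptoglobin, a plasma protein that captures free haemoglobin, was at 12.26, 11.55 and 11.77 in AZD1208 lines and at 11.52, 10.25 and 10.13 in vehicle lines. All 6 lines were above the parental level of 6.73. The groups were only 0.03 apart, since vehicle 1 nearly reached AZD1208 2, while vehicle 2 and vehicle 3 were more than 1 lower. The difference was 1.23 (SE 0.39, 95% interval 0.33 to 2.13).

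Slpi, a secreted inhibitor of neutrophil proteases, was at 8.69, 9.81 and 8.83 in AZD1208 lines and at 7.97, 8.68 and 8.06 in vehicle lines. Its groups were 0.006 apart and overlapped when arrays were centred on their median. Wfdc2, a secreted protein of the same whey acidic protein family, was at 6.71, 7.52 and 6.96 against 6.58, 6.17 and 6.70, with the groups 0.005 apart. Nod1, a cytosolic sensor of bacterial peptidoglycan, was at 7.10, 8.02 and 7.02 against 6.87, 6.94 and 6.75. In Slpi, Wfdc2 and Nod1 alike AZD1208 2 was the highest line, and without it their differences were 0.53, 0.35 and 0.21 in place of 0.88, 0.58 and 0.53.

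The dominance of that line held for most of the group. In 12 of the 15 genes with the largest separated difference to higher values the highest value was that of AZD1208 2, against 60 of all 219 separated genes. Myl9, a myosin regulatory light chain, was at 8.25, 10.66 and 8.13 in AZD1208 lines and at 8.02, 7.69 and 7.96 in vehicle lines. Wnt6, a secreted Wnt ligand, was at 6.88, 8.78 and 7.05 against 6.81, 6.61 and 6.55, and Acta1, the skeletal muscle actin gene, at 7.56, 8.71 and 7.77 against 7.52, 7.24 and 7.5. Without AZD1208 2 these 3 differences were 0.30, 0.30 and 0.25 in place of 1.13, 0.91 and 0.60. The 14 fibroblast markers tested had a mean level of 9.31 in AZD1208 2, against 8.07 and 8.10 in the other AZD1208 lines and 8.05 to 8.76 in vehicle lines. Their part in these differences was not tested, and in bulk RNA a changed share of cells and a changed amount of RNA per cell cannot be told apart.

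P2rx7, an ion channel opened by extracellular ATP, was at 7.29, 8.16 and 6.78 in AZD1208 lines and at 6.65, 6.42 and 6.64 in vehicle lines. Dram1, a lysosomal membrane protein that promotes autophagy, was at 7.68, 8.74 and 7.60 against 7.49, 7.28 and 7.51, with all 6 lines above the parental level of 6.62. Without AZD1208 2 their differences were 0.47 and 0.21 in place of 0.84 and 0.58. For Ociad2, Palm and As3mt the same step took the difference from 0.77 to 0.17, from 0.70 to 0.35 and from 0.53 to 0.31.

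In 3 of the 15 genes, Hp, Tmem54 and Galnt15, AZD1208 1 was the highest line. Tmem54, a membrane protein gene, was at 10.40, 10.15 and 10.18 in AZD1208 lines and at 9.45, 9.90 and 9.6 in vehicle lines, all below the parental level of 10.88. Galnt15, which encodes a transferase of mucin-type glycosylation, was at 6.84, 6.49 and 6.52 against 6.36, 5.68 and 6.05. Gprc5b, an orphan G protein-coupled receptor, was at 7.38, 8.13 and 7.57 against 7.0, 6.97 and 7.17. The differences were 0.59 (SE 0.17), 0.59 (SE 0.21) and 0.65 (SE 0.21), and without any single line they stayed at 0.41 or more. None of the 15 genes passed (limma adjusted p = 1 for each). With quantile normalization 13 of them stayed separated, and with centring 10, the genes lost being As3mt and Ociad2 under both and Slpi, Palm and Nod1 under centring.

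**Figure D3:**
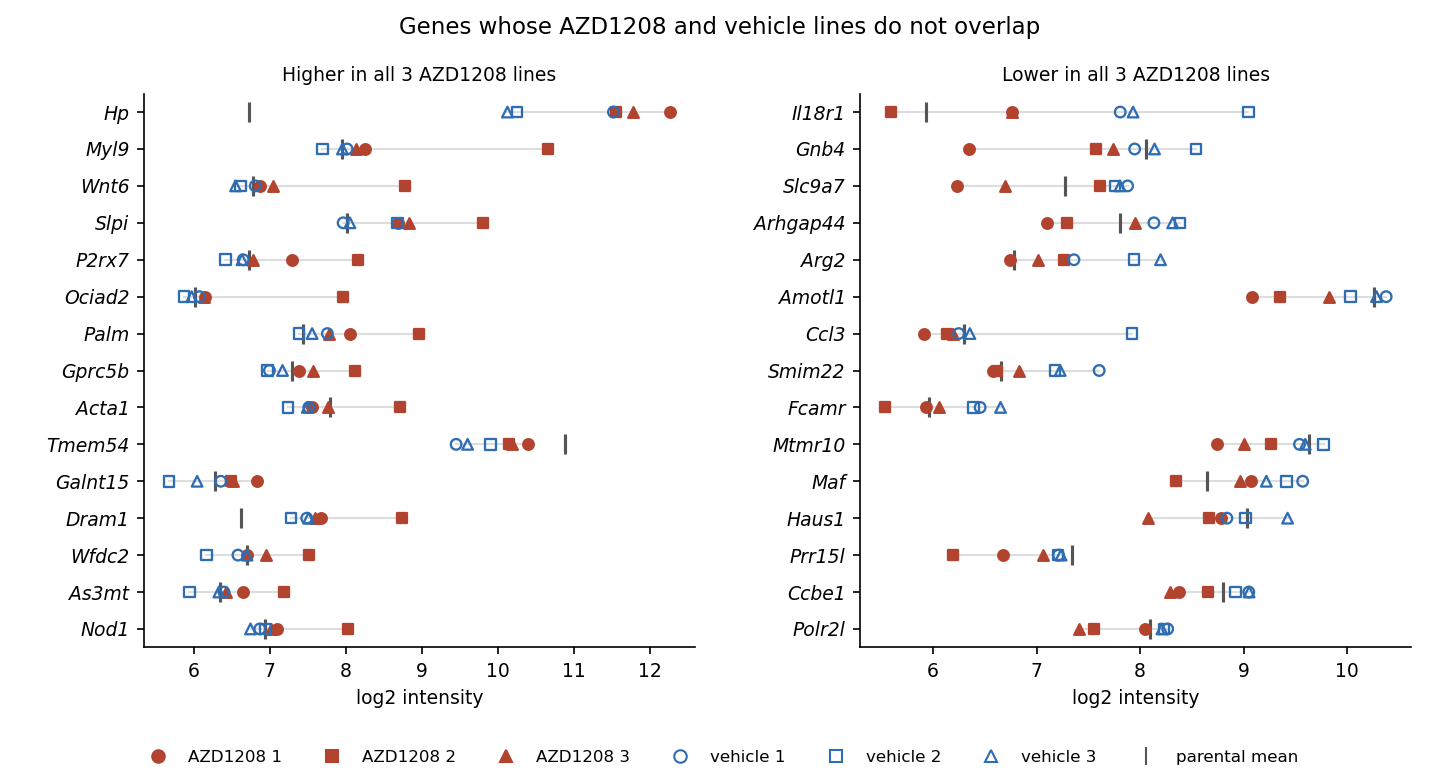
Log2 intensity of each line for the 15 genes with the largest higher and the 15 with the largest lower mean difference among genes whose AZD1208 (filled) and vehicle (open) lines do not overlap; marker shape gives the replicate number and the grey bar the parental mean. AZD1208 2 (filled squares) lies far to the right for Myl9 (10.66), Wnt6 (8.78) and Ociad2 (7.97), and Il18r1 has the widest distance between groups (1.04).

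Most of the largest mean differences, without regard to overlap, depended on a single line. There were 26 genes with a difference of more than 1, 18 higher and 8 lower, and 3 of them, Il18r1, Hp and Myl9, had groups that did not overlap. In 16 of the 26 the line farthest from the other 5 was AZD1208 2. Leaving that line out kept 10 of the 26 above 1, whereas leaving out AZD1208 1 or AZD1208 3 kept 24 in either case. Without vehicle 1, 2 or 3 the number kept was 18, 17 and 19. Only 2 genes, Nxf3 and Il18r1, stayed above 1 in size whichever line was left out.

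Nxf3, of the nuclear RNA export factor family, had the largest difference of all (2.63, SE 1.06). It was at 5.15, 10.05 and 7.57 in AZD1208 lines and at 4.77, 4.79 and 5.34 in vehicle lines, so AZD1208 1 lay within the vehicle range and the other 2 AZD1208 lines above it. Those 4 lowest values were under 5.81, the mean level below which genes were left out, so Nxf3 was tested only through 2 high lines and the size of its difference is uncertain. Without AZD1208 2 it was 1.4. Gask1b, a Golgi-associated protein gene, was at 8.15, 8.94 and 6.16 against 6.41, 5.99 and 6.26. Here AZD1208 3 was the line within the vehicle range, and the difference of 1.53 was 0.94 without AZD1208 2. Tm4sf1, a membrane protein of the L6 family, was at 8.81, 7.47 and 5.89 against 7.09, 5.11 and 6.0, and its difference of 1.32 was 0.61 without AZD1208 1.

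Acta2, the smooth muscle actin gene, was at 11.87 in AZD1208 2 and between 7.05 and 8.0 in the other 5 lines. Its difference of 1.63 was 0.29 without that line. Pdgfrb, a receptor of mural cells and fibroblasts, was likewise at 9.78 in AZD1208 2 and between 6.49 and 7.22 in the others, and Gpx3, a secreted glutathione peroxidase, was at 5.43 there and between 8.16 and 9.75 elsewhere. Pdgfrb was chosen after its values were seen.

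Vehicle 1 set several of the other large differences. Crtap, which takes part in prolyl hydroxylation of collagens, was at 5.77 in vehicle 1 and between 8.59 and 10.43 in the other 5 lines. Pcbd1, a pterin dehydratase and cofactor of the transcription factor HNF1, was at 5.50 there and between 8.74 and 9.97 elsewhere. In the opposite direction Glrb, the glycine receptor beta subunit, was at 11.86 in vehicle 1 and at most 6.30 elsewhere, and Ucma, a cartilage matrix protein gene, at 11.60 and at most 7.84. Vehicle 2, vehicle 3, AZD1208 3 and parental cells had Glrb at 4.65, 5.24, 5.12 and 4.73. These are under 5.81, the mean level below which genes were left out. Glrb was thus tested only through vehicle 1, and the size of its difference, with or without that line, is uncertain. Without vehicle 1 the difference of Crtap was 0.82 and that of Pcbd1 0.42, and those of Glrb and Ucma turned from -1.44 and -1.23 to 0.87 and 0.41. Dpt, chosen after its values were seen, encodes the matrix protein dermatopontin and was high in 1 line of each group, at 10.48 in AZD1208 2 and 11.25 in vehicle 1, and at most 6.68 in the other 4.

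Rab25, an epithelial GTPase of vesicle recycling, was at 10.45 in vehicle 3, 8.26 in vehicle 2 and between 5.95 and 7.05 in the other 4 lines, and its difference of -1.65 was -0.53 without vehicle 3. Krt6a, a keratin of stressed stratified epithelium, was at 6.43, 5.07 and 7.39 in AZD1208 lines and at 6.18, 8.48 and 7.58 in vehicle lines, all far below the parental level of 11.68. Its groups overlapped, with vehicle 1 below 2 of the 3 AZD1208 lines, and its difference of -1.12 was -0.50 without AZD1208 2.

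**Figure D4:**
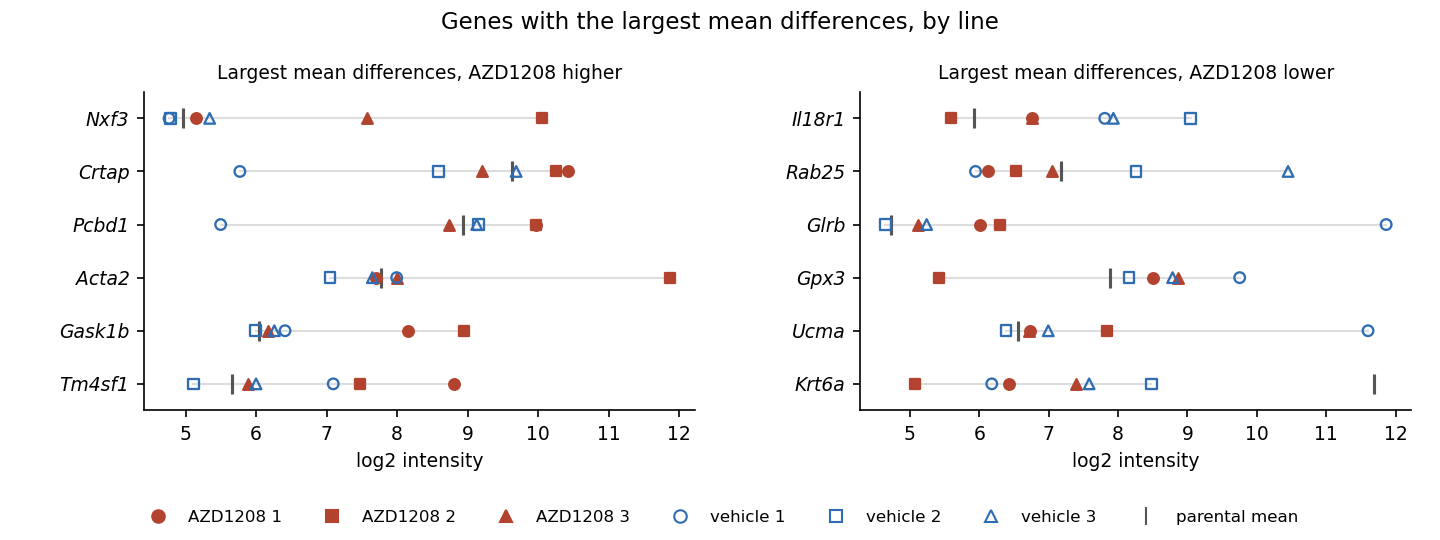
Log2 intensity of each line for the 6 genes with the largest higher and the 6 with the largest lower mean difference between AZD1208 (filled) and vehicle (open) lines; marker shape gives the replicate number and the grey bar the parental mean. A single line lies far from the rest for Acta2 (AZD1208 2 at 11.87), Crtap (vehicle 1 at 5.77) and Glrb (vehicle 1 at 11.86).

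The levels of Pim1, Pim2 and Pim3, the transcripts of the drug's targets, overlapped between the groups. Pim1 was at 9.36, 9.81 and 9.40 in AZD1208 lines and at 8.87, 9.80 and 9.40 in vehicle lines. Pim2 was at 7.73, 7.99 and 7.92 against 7.65, 7.71 and 7.96, and Pim3 at 9.74, 9.38 and 9.79 against 9.62, 9.90 and 9.92. With single lines left out the differences ran from -0.08 to 0.39 for Pim1, from 0.05 to 0.20 for Pim2 and from -0.27 to -0.05 for Pim3. The 95% intervals of the differences were -0.45 to 0.78 for Pim1, -0.27 to 0.48 for Pim2 and -0.59 to 0.24 for Pim3, so changes within those bounds were not resolvable. Myc, whose human transgene this mouse probe set may or may not read, was at 9.43, 9.79 and 10.30 against 9.38, 10.34 and 9.92, with an interval of -0.76 to 0.68. In the MYC, MAX and MXD network 3 of 11 genes were higher and 8 lower (median -0.06, or 0.008 with quantile normalization and -0.006 without AZD1208 2). Mlxip, which pairs with the MAX-like factor MLX, was the 1 separated member, lower by a distance of 0.005, where 1.98% of all genes were. Mxd1, a MAX partner that opposes MYC, was at 8.17, 8.59 and 8.60 against 8.54, 9.50 and 8.66, and its difference of -0.45 was -0.15 without vehicle 2. Mxd3 differed by -0.31 (SE 0.20), or -0.14 without AZD1208 2, and Mycn by 0.27 (SE 0.18), or 0.14 without vehicle 2, with overlapping groups.

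Genes of the AKT and mTOR branch that PIM kinases share had mostly lower values, as did most genes of similar level. Of 24 tested, 17 were lower and 7 higher, with a median of -0.11 (-0.05 with quantile normalization, and from -0.13 without AZD1208 3 to -0.04 without AZD1208 1 with single lines left out), against -0.02 over all genes. None passed, 1 was separated to higher values and 2 to lower values, and all genes gave 1.41% and 1.98% for these. Eif4e, the cap-binding translation factor, was at 11.04, 10.91 and 10.73 in AZD1208 lines and at 11.05, 11.12 and 11.15 in vehicle lines. Mtor, the kinase itself, was at 9.29, 9.25 and 9.22 against 9.47, 9.37 and 9.54, and Tsc2, which restrains it, at 10.36, 10.58 and 10.28 against 10.22, 10.18 and 10.24. Without AZD1208 3 the difference of Eif4e was -0.13 in place of -0.21, and without AZD1208 2 that of Tsc2 was 0.11 in place of 0.20. These 3 separations were 0.08 wide or less, that of Mtor was lost with quantile normalization and that of Tsc2 with centring. Rps6kb2, an S6 kinase gene, differed by -0.30 (SE 0.17) with overlapping groups.

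MYC targets of ribosome biogenesis and growth were lower in 30 of 34 genes, with a median of -0.14 (-0.21 without AZD1208 3, -0.09 with quantile normalization). The median turned to 0.003 without AZD1208 2 and to 0.03 without vehicle 3, and was -0.35 without vehicle 1. The list mean against parental cells was -0.27, -0.71 and -0.32 in AZD1208 lines and -0.71, -0.21 and 0.02 in vehicle lines. The groups therefore overlapped, with AZD1208 2 and vehicle 1 equally low. No member was separated or passed. The RNA helicase gene Ddx18 differed by -0.33 (SE 0.21), the coactivator Pprc1 by -0.31 (SE 0.32) and the translation factor Eif5a by -0.15 (SE 0.17), and without vehicle 3 these were -0.19, -0.06 and -0.04. The mitochondrial transcription factor Tfb2m differed by -0.27 (SE 0.29), or 0.05 without AZD1208 3.

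For the unfolded protein response and ER chaperones, the genes that fold and clear secretory proteins, 23 of 26 were lower (17 of 26 without AZD1208 3), with a median of -0.20 (-0.07 without vehicle 1, -0.12 without AZD1208 3, -0.13 with quantile normalization). Sel1l, part of the ER-associated degradation complex, was at 9.85, 9.95 and 9.93 in AZD1208 lines and at 10.04, 10.24 and 10.14 in vehicle lines, the only separated member, where 1.98% of all genes were separated to lower values. Herpud1, an ER-stress-induced adaptor of degradation, was at 10.45, 10.35 and 10.67 against 10.98, 10.56 and 10.74, with vehicle 2 inside the AZD1208 range. Ern1, the stress sensor IRE1, and Hyou1, an ER chaperone, differed by -0.30 (SE 0.19) and -0.32 (SE 0.22). Ern1 was at -0.17 without AZD1208 2, Hyou1 at -0.15 without AZD1208 1 and Herpud1 at -0.16 without vehicle 1, in place of -0.27. The list mean against parental cells was 0.05, 0.04 and -0.02 in AZD1208 lines and 0.39, 0.10 and 0.05 in vehicle lines, so vehicle 1 stood apart within its group. With array quality weights, which give AZD1208 2, AZD1208 3 and vehicle 1 less weight than the rest, the list median was -0.05.

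Genes induced by p53, the stress-activated tumour suppressor, had mostly lower values. Of 22 genes, 18 were lower (16 without AZD1208 3), the median was -0.19 (-0.16 without AZD1208 3, -0.17 with quantile normalization), and the list mean against parental cells was 0.01, 0.06 and -0.07 in AZD1208 lines and 0.22, 0.14 and 0.20 in vehicle lines. The list means of the groups thus did not overlap, which held for no other of the 36 lists. Over all genes tested, 8511 were lower and 7015 higher in AZD1208 lines. Perp, a desmosomal p53 effector, was at 10.19, 10.42 and 10.06 against 10.55, 10.70 and 10.52. Ei24, an ER membrane protein of autophagy, was at 11.10, 11.10 and 11.28 against 11.36, 11.40 and 11.70. These were the 2 separated members, both lower, where 1.98% of all genes were. Cdkn1a, the CDK inhibitor p21, was at 9.27, 8.84 and 8.94 against 9.80, 9.09 and 9.71, with vehicle 2 below AZD1208 1. Zmat3, an RNA-binding p53 target, was at 8.66, 8.97 and 8.56 against 8.96, 9.08 and 9.23, with vehicle 1 just below AZD1208 2. No member of this list or of the unfolded protein response list passed, and earlier results of these data were known when both lists were set, so their counts are no independent evidence of direction.

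Acute phase and secreted defence proteins, which liver and epithelia release in inflammation, gave several of the separated genes. Of 16 tested genes, 9 were higher, and 4 of them, Hp, Slpi, Wfdc2 and Orm2, were separated to higher values, where 1.41% of all genes were. Orm2, an acute phase glycoprotein, was at 6.01, 6.01 and 5.92 in AZD1208 lines and at 5.81, 5.56 and 5.81 in vehicle lines. These values are close to the level under which genes were left out (5.81), and its vehicle mean (5.73) and parental level (5.79) were under it. Orm2 was thus tested only through the AZD1208 lines. Hp and Slpi were in the list because earlier results had named them, so the count of separated members is no independent evidence. The list median was 0.07, or 0.26 without AZD1208 3, and its mean against parental cells was highest in AZD1208 2 (1.36), followed by vehicle 1 (0.91), with 0.67 and 0.54 in the other AZD1208 lines and 0.62 and 0.39 in the other vehicle lines.

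Matrix genes and regulators of epithelial-mesenchymal transition were higher in 20 of 24 genes, but in 15 of 24 without AZD1208 3, where the median went from 0.10 to 0.04 (0.02 without vehicle 2). Vim, the mesenchymal filament vimentin, was at 13.73, 13.91 and 13.67 in AZD1208 lines and at 13.65, 13.59 and 13.62 in vehicle lines. Twist2, a helix-loop-helix repressor, was at 8.73, 8.38 and 8.59 against 8.90, 8.75 and 9.41, separated by 0.02 and overlapping with quantile normalization. Tnc, a matrix glycoprotein gene, differed by 0.25 (SE 0.18), or 0.09 without AZD1208 3, with its groups separated by 0.01. Vim and Tnc were thus separated to higher values and Twist2 to lower values, 3 of 24 genes. Over all genes 3.39% were separated either way. The vehicle mean of Tnc (5.76) was under 5.81, the mean level below which genes were left out, and its parental level was 5.83. Tnc was thus tested only through the AZD1208 lines, and its place among the 3 separated genes is uncertain. Fn1, the fibronectin gene, differed by -0.28 (SE 0.19), or -0.14 without AZD1208 1, and Thbs1 by 0.35 (SE 0.30), or 0.09 without AZD1208 2, both with overlapping groups. No member passed. Among fibroblast markers 10 of 14 were higher with a median of 0.12, which was -0.11 without AZD1208 2. Fbln2, a matrix fibulin, was at 7.96, 8.18 and 7.93 against 9.36, 8.80 and 7.96, and its difference of -0.68 was -0.35 without vehicle 1.

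In the Hippo pathway, which restrains organ growth through YAP, of 22 genes 10 were higher and 12 lower, the median was -0.04 (0.03 with quantile normalization), and Amotl1 was the only separated member, where 3.39% of all genes were separated either way. The median lay between -0.11 and 0.02 with single lines left out. Yap1, the transcriptional coactivator that angiomotins hold at junctions, was at 10.09, 10.72 and 10.29 in AZD1208 lines and at 10.36, 10.62 and 10.68 in vehicle lines. Its DNA-binding partner Tead3 differed by 0.25 (SE 0.20), or 0.10 without AZD1208 2, and the TEAD cofactor Vgll4 by -0.25 (SE 0.26), or -0.02 without AZD1208 3, both with overlapping groups.

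Of 24 T-box, Wnt and prostate developmental genes, 13 were higher and 11 lower (7 and 17 without AZD1208 3), with a median of 0.02 (-0.07 without AZD1208 3). Tbx18, a T-box factor of mesenchyme, was at 8.22, 8.28 and 8.0 in AZD1208 lines and at 8.49, 8.83 and 8.88 in vehicle lines. Prickle3, of the planar cell polarity branch of Wnt signalling, was at 6.88, 7.12 and 6.88 against 6.58, 6.53 and 6.53. Tbx18 was the 1 member separated to lower values and Prickle3 the 1 to higher values, where 1.98% and 1.41% of all genes were. Both separations held under the other 2 scalings, with differences of -0.56 (SE 0.17) and 0.41 (SE 0.14). Neither gene passed (limma adjusted p = 1). Gata2 differed by 0.52 (SE 0.37), or 0.10 without AZD1208 2, and Wnt10a by 0.24 (SE 0.19), or 0.14 without AZD1208 3, with overlapping groups. The vehicle mean of Gata2 (5.65) and its parental level (5.80) were under 5.81, the mean level below which genes were left out. Gata2 was thus tested only through the AZD1208 lines, and the size of its difference is uncertain.

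Subunits of the mitochondrial respiratory chain were lower in 32 of 38 genes, with a median of -0.10. It was -0.12 without AZD1208 3, -0.06 with quantile normalization and 0.02 without AZD1208 2, the line with the lowest list mean against parental cells (-0.21, against -0.05 to 0.11 in the other 5). Uqcrc2 of complex III was at 11.80, 11.65 and 11.90 in AZD1208 lines and at 11.92, 11.93 and 12.09 in vehicle lines, and it overlapped with quantile normalization. Uqcrc2 and Ndufb5 of complex I were the 2 members separated to lower values, where 1.98% of all genes were. Cox5a and Cox5b of complex IV differed by -0.25 (SE 0.18) and -0.28 (SE 0.18), and Uqcrq by -0.22 (SE 0.18). Without vehicle 2 Cox5a was at -0.14, and without AZD1208 2 Cox5b and Uqcrq were at -0.15 and -0.11. This list, like those of MYC targets and ER chaperones, held genes of high level (parental mean 10.8, 10.9 and 10.2), the range in which most genes were lower in AZD1208 lines.

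**Figure D5:**
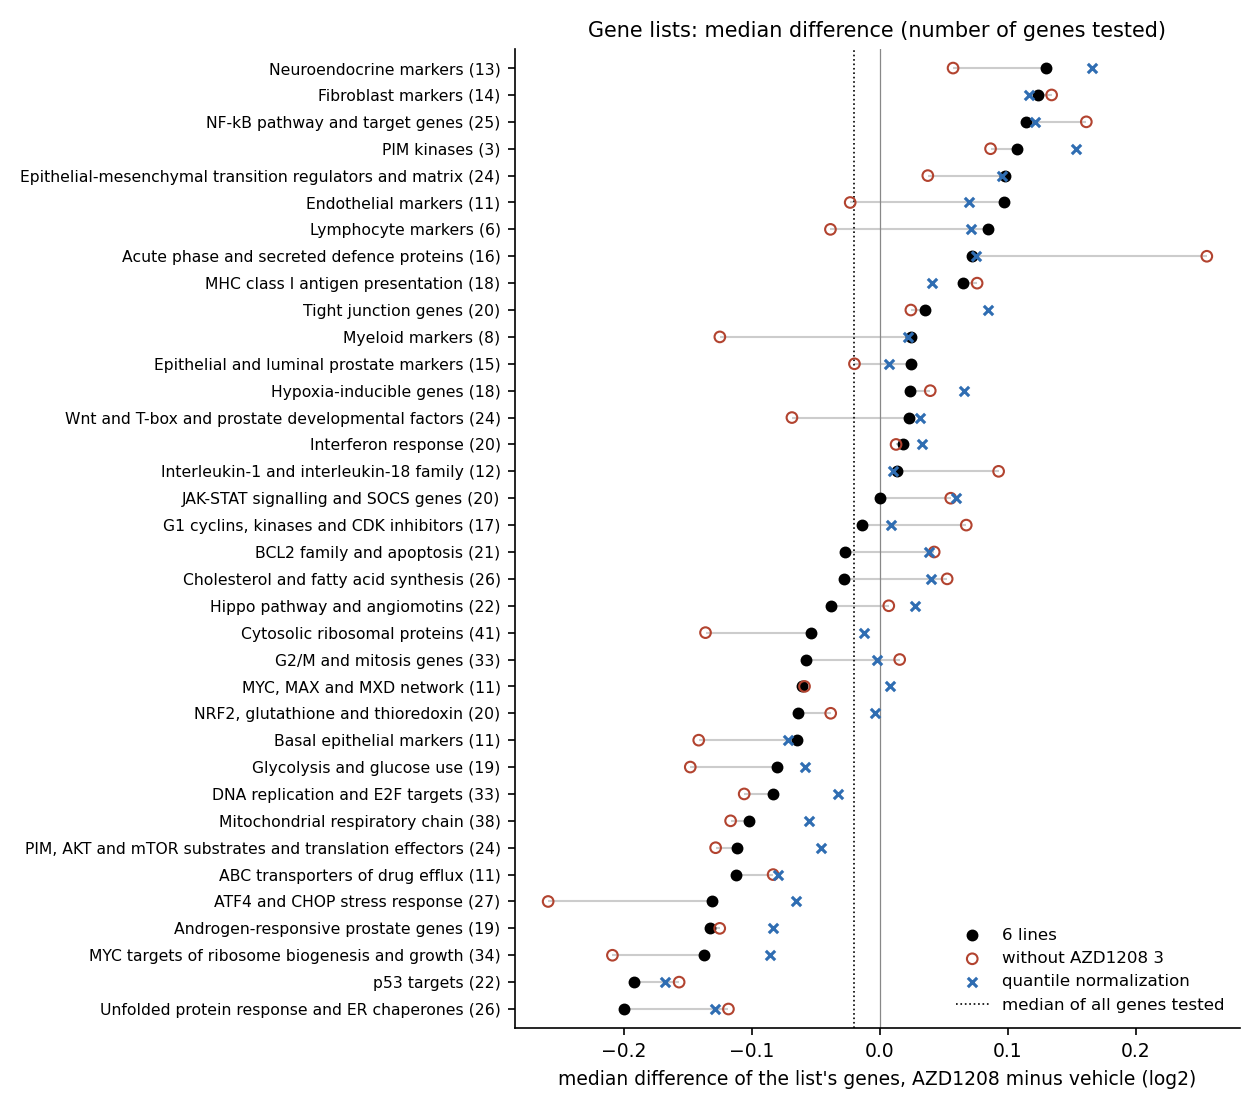
Median log2 difference, AZD1208 minus vehicle, of 36 gene lists with the number of genes tested in each; black points use all 6 lines, open circles leave out AZD1208 3 and crosses use quantile normalization. Medians lie between -0.20 (unfolded protein response) and 0.13 (neuroendocrine markers), and those of endothelial, lymphocyte and myeloid markers fall below 0 without AZD1208 3.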

How the data were processed

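Per the labels, total RNA of 9 samples was hybridised to Affymetrix arrays. The authors deposited 1 log2 intensity for each probe set and array, made with oligo per the submitters' processing notes. How oligo corrected and normalized the arrays was not given in the sources used here. Array medians lay between 6.22 and 6.36, and the number of arrays limits precision. Of 41345 probe sets, 23521 had 1 gene symbol in the platform annotation, 1814 had several and were named for none, and 16010 were not listed there and stayed unnamed. The brightest probe set, by the mean over the 6 lines and the parental level, stood for a gene (22180 genes). Genes in the lowest 30% by that mean (under 5.81) were left out, leaving 15526. The 6 lines were fitted with limma 3.58.1 in R 4.3.3 (4 residual and 3.36 prior degrees of freedom), with Benjamini-Hochberg adjustment over all genes. The fit was tested on simulated data.

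Named genes are Pim1, Pim2, Pim3 and Myc, the 15 largest separated differences and the 6 largest differences each way, and the 4 list members of smallest p in each of 13 lists, leaving aside symbols of predicted genes, olfactory receptors and small RNAs. The parts of the study and the 36 lists (722 of 893 entries tested) were chosen with earlier results of these data known.

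No label pairs the lines. Deviations from the group means of lines with the same number correlated at 0.146, 0.118 and 0.532, above the 0.1 taken here as pairing, though vehicle 1 and AZD1208 2 reached 0.264. The fit without a block was kept, and paired counts stand beside it.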

Additional observations from a re-analysis of the deposited data

How the results depend on the processing

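The number of genes past the adjusted threshold was 0 in limma under all 15 other settings run, with the smallest adjusted p at 0.801 with array quality weights. Genes at an unadjusted p under 0.05 numbered 81, against 218 with no filter on dim genes, 45 above the 50th percentile, 917 with array quality weights and 169 with the replicate block, of which 66 were among the 81. With single lines left out they numbered 61 to 395. Separated genes numbered 526, against 935 with no filter and 1099 to 2738 with single lines left out, where fewer lines make separation easier. Quantile normalization without AZD1208 3, chosen after the data were seen, gave 415 and 2459. Of the 526, 303 stayed separated with quantile normalization and 406 with centring. The causes of these moves were not tested.

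Of 85 named genes 7 turned in sign, in 12 of 1258 values. Myc turned with quantile normalization (0.017), without AZD1208 1 (0.17) and without vehicle 2 (0.19). With array quality weights Pim1 (-0.063), Pim2 (-0.00599) and Tfb2m (0.12) turned, as did Tfb2m without AZD1208 3 (0.048, or 0.043 with quantile normalization too). Without vehicle 1, Pim1 (-0.078), Glrb (0.87) and Ucma (0.41) turned, and without AZD1208 2, Irak3 (-0.049). Leaving out single lines gave -0.29 to 0.19 for Myc, -0.078 to 0.39 for Pim1, -2.74 to 0.87 for Glrb, -2.20 to 0.41 for Ucma, -0.049 to 0.50 for Irak3 and -0.56 to 0.048 for Tfb2m.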

Other observations

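Other pathways gave a few separated genes and 0 that passed. Those below were chosen after their values were seen, and others are left out. Psme2, Bik, Gpx4, E2f1 and Fkbp5 were each the only separated member of their list, of 18, 21, 20, 33 and 19 genes tested. Over all genes 3.39% were separated either way. Psme2, a subunit of the proteasome activator used in antigen processing, was at 8.50, 9.11 and 8.95 in AZD1208 lines and at 8.45, 8.50 and 8.27 in vehicle lines. Bik, a pro-apoptotic BH3-only protein, was at 7.49, 7.39 and 7.44 against 7.01, 7.04 and 7.29, and Gpx4, which detoxifies lipid peroxides, at 8.88, 8.93 and 9.03 against 8.76, 8.76 and 8.71. Separated to lower values were E2f1, an activator of replication genes (9.72, 9.35 and 9.65 against 9.79, 9.81 and 9.98), and Fkbp5, an androgen-responsive co-chaperone (9.56, 9.62 and 9.62 against 9.67, 10.03 and 9.87).

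Slc7a11, the cystine transporter subunit of the ATF4 response, was at 10.34, 10.62 and 9.88 in AZD1208 lines and at 11.38, 11.12 and 10.52 in vehicle lines, with vehicle 3 inside the AZD1208 range. Of 27 genes of that response 19 were lower, with a median of -0.13 (-0.26 without AZD1208 3). NF-kB genes were higher in 18 of 25, with a median of 0.11 and 0 separated, where 3.39% of all genes were separated either way. The mean of the NF-kB genes against parental cells was high in 1 line of each group, 0.87 in AZD1208 2 and 0.46 in vehicle 2, and lay between -0.20 and 0.03 in the other 4.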
